A study of Mus musculus with 4 samples.

Results

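The strongest open chromatin regions (OCRs) that 4 ATAC-seq libraries of lymph node (LN) Treg cells had in common were examined. In each library the 1000 peaks with the highest −log10 p were taken, peaks that overlapped by at least 1 bp were merged, and merged regions on autosomes were kept when they held such a peak of all 4 libraries. This left 709 regions, of 1302 merged autosomal regions that held a top peak of any library and of 37633 autosomal regions called in all 4 libraries. Of the 709 regions, 669 lay within 1 kb of an annotated transcription start site (TSS) and are called promoters here, and 40 lay farther away.

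ATAC-seq cuts DNA with the Tn5 transposase where it is not wrapped in nucleosomes, so a peak marks accessible DNA. Promoters of genes that nearly all cells use keep a nucleosome-free gap upstream of the TSS, whereas enhancers tend to be open in the cell types that use them. Treg cells are CD4+ T cells that depend on the transcription factor Foxp3 and on interleukin 2 (IL-2), which they bind with high affinity through CD25, the product of Il2ra. NFY is a trimeric factor that binds the CCAAT box of promoters, SP and KLF factors bind GC boxes, and RUNX, ETS, AP-1 and STAT factors bind many T cell enhancers.

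Both groups were naive C57BL/6 mice of 6 to 8 weeks, labelled female, that carried the Foxp3 Rfp/Rfp reporter, which makes Foxp3+ cells red. The WT group had intact Il2ra and the Il2ramut/mut group was homozygous for a point mutation in CD25. Each genotype had 2 libraries, which the study's methods call biological replicates, each from 50000 RFP+ CD4+ cells that were enriched by negative selection and then flow-sorted. The mutation was not limited to Treg cells, and the sources used here do not say how many mice gave each library.

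The lists held between 112569 peaks in WT replicate 1 and 142732 in Il2ramut/mut replicate 2. No read totals come with the lists, and sequencing depth is therefore unknown. The fold enrichment of a peak is the read pile-up at its summit over the background of the library, with 1 read added to both, and ranking by it or by −log10 p gives one order within a library. As a check of the cell type, promoter peaks called in all 4 libraries were counted at marker genes. They stood at 10 of 10 Treg markers and 10 of 10 T cell markers, which were short lists. The longer lists used below had them at 28 of 33 Treg genes, Foxp3 included, and at 40 of 40 T cell genes. Of other cell types, 1 of 8 B cell markers (Ebf1), 1 of 8 myeloid markers (Fcgr3) and 2 of 7 CD8 and NK cell markers (Prf1 and Cd8b1) had one. Peaks on the Y chromosome went against the label of sex: of 4 genes of the Y chromosome, 3 had a promoter region called in all 4 libraries. The fold enrichment was 10.1 and 18.7 in WT and 16.6 and 16.0 in Il2ramut/mut at Ddx3y, 14.7 and 19.7 in WT and 14.4 and 9.72 in Il2ramut/mut at Eif2s3y, and 12.2 and 19.7 in WT and 11.7 and 16.0 in Il2ramut/mut at Uty. No promoter region of Kdm5d, the fourth, or of Xist, the RNA that silences an X chromosome in females, was called in all 4 libraries. The genotypes overlapped at Ddx3y and Uty. At Eif2s3y both WT libraries lay above both Il2ramut/mut libraries, an order that is common with 2 libraries per genotype. The members described below are autosomal. The bulk libraries cannot tell fewer open cells from less opening per cell.

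The members were chosen by their −log10 p in all 4 libraries, so their strength is given as a description. The weakest peak taken had a −log10 p of 161.5 in WT replicate 1, 247.1 in WT replicate 2, 212.7 in Il2ramut/mut replicate 1 and 210.8 in Il2ramut/mut replicate 2. The median fold enrichment of the 709 regions was 70.4, 97.5, 80.3 and 85.0 in the same order, against 7.60, 10.6, 8.52 and 8.26 over all regions called in all 4 libraries. WT replicate 2 had the highest values and WT replicate 1 the lowest, and the Il2ramut/mut libraries lay between them. Fold enrichments of single regions are given without scaling between libraries, so where the genotypes overlapped, this does not show that they were alike. The median pile-up at the summit of the members was 138, 192, 178 and 174 reads, recovered from the fold enrichment as described under the processing.

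The limit fell among ties. Between 22 and 30 peaks of a library shared the −log10 p of the weakest peak taken, and between 12 and 20 of them were taken by their place in the genome. Just inside the limit stood the promoters of Tprn, Mapre1 and Megf9, a region 14.2 kb from Neu4 and a region in intron 6 of Phf19. Just outside stood the promoters of Mpp5, Rab2b, Otulinl, Gm33195 and Il2rb. Il2rb encodes the beta chain of the IL-2 receptor. Its promoter had a fold enrichment of 57.7 and 75.3 in the WT libraries and of 59.2 and 61.7 in the Il2ramut/mut libraries, and in both Il2ramut/mut libraries it stood at the tied value but later in the genome than the peaks taken. All 593 regions that missed the rule were called in all 4 libraries, and 65.9% of them reached 0.8 of the limit or more in their weakest library.

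**Figure D1:**
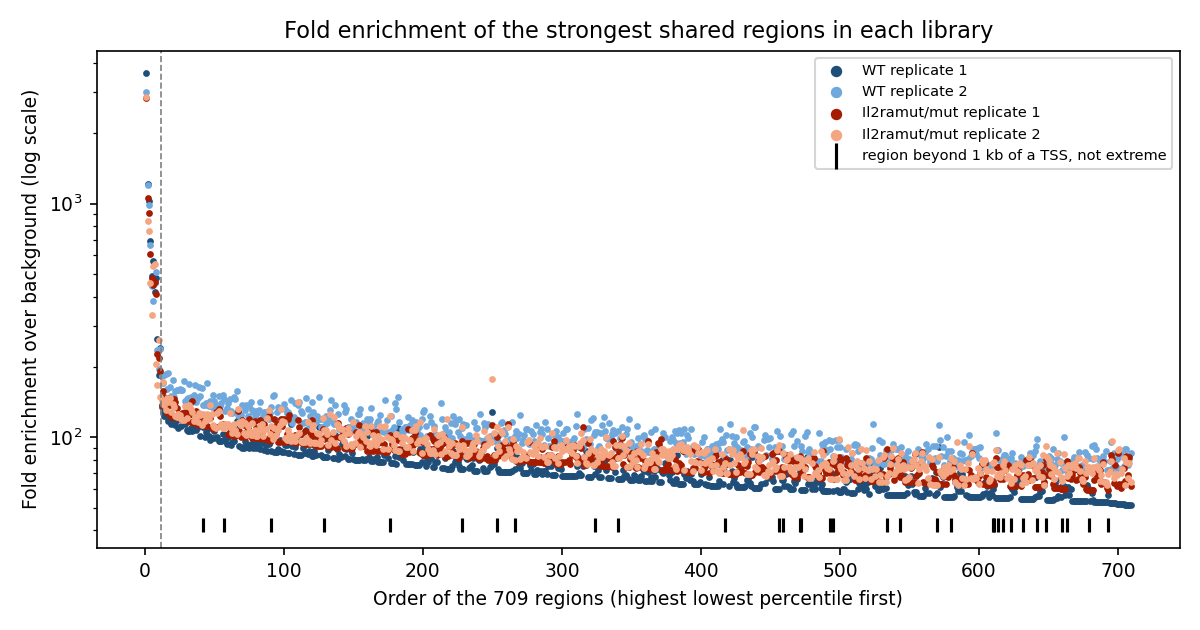
Fold enrichment over background (log scale) of the 709 strongest shared regions in each of the 4 libraries, one point per region and library, ordered by the lowest percentile of a region over the libraries. The 11 regions left of the dashed line lie between 149 and 3612, the other regions reach at most 188, and the ticks mark the 33 regions beyond 1 kb of a TSS that are not extreme.

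The first sequences shown are promoters that carry the CCAAT box, the word whose share differed most from that of all promoters. They are the 5 strongest members, by the lowest percentile over the libraries, whose 120 bases directly upstream of the TSS overlap no annotated exon and hold CCAATCA or its reverse complement, which is in capitals. Each runs 5′ to 3′ on the strand of the gene and ends at the base before the TSS (mm10, RefSeq sequence of GRCm38.p6).
Aamp (chr1:74284739-74284858, minus strand): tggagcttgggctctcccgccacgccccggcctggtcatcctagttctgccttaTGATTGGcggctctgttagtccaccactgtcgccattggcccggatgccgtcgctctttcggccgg
Ap2a1 (chr7:44929497-44929616, minus strand): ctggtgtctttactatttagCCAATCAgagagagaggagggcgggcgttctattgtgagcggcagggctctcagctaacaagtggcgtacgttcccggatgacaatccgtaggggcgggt
Sin3a (chr9:57076256-57076375, plus strand): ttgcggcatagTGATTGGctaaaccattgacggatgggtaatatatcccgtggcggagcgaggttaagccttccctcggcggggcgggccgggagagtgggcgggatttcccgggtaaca
G3bp1 (chr11:55469565-55469684, plus strand): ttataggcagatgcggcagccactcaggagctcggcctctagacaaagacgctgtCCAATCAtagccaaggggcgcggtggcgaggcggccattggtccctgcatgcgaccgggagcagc
Tubb4b (chr2:25224703-25224822, minus strand): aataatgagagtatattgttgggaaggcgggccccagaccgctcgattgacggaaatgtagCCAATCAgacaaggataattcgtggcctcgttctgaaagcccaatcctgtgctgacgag
The words start between 109 bases (Sin3a, a scaffold of histone deacetylase complexes) and 59 bases (Tubb4b, a beta tubulin) upstream of the TSS.

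Nearly all of the strongest shared regions were promoters. The 669 promoters made up 94.4% of the 709 regions (95% Wilson interval 92.4 to 95.8%, which covers counting error only), against 33.7% (33.2 to 34.1%) of the 37633 regions called in all 4 libraries. Of the 669 promoters, 658 covered a TSS (98.4%), against 84.8% of all 12666 promoter regions. The member promoters were wide, with a median of 1407 bp against 1006 bp over all promoter regions. Their summits lay close together, within a median of 40 bp over the 4 libraries against 83 bp. Their pile-ups were higher too, and the part of this in the summit spread was not tested. Protein-coding genes started on both strands, within 1 kb of the region, at 109 member promoters (16.3%) and at 8.86% of all promoter regions. Wider regions reach more TSSs. The part of the width in this share and in the share that covered a TSS was not tested. The share of the promoter regions of a chromosome that were members ranged from 4.02% on chromosome 2 to 7.68% on chromosome 7.

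After the repeats described below, the strongest promoters were those of Map3k3, Dnpep and Kctd9. The promoter of Map3k3, a kinase upstream of MAP kinases, had a fold enrichment of 135 and 183 in the WT libraries and of 138 and 145 in the Il2ramut/mut libraries. At Dnpep, an aminopeptidase, the values were 128 and 171 in WT and 158 and 172 in Il2ramut/mut. Kctd9, a BTB domain protein, had 123 and 184 in WT and 149 and 137 in Il2ramut/mut. At each of these 3 promoters WT replicate 1 was the lowest library, as it was over the members as a whole, and the ranges of the genotypes overlapped. Next came Srgap2, the deubiquitinase Usp20 and Mxd4, a MAX partner that opposes MYC, with fold enrichments between 117 and 188 over the 3 promoters and 4 libraries.

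No promoter of the autosomal Treg and T cell identity genes listed was a member. At the share of all protein-coding genes, lists of this size would hold few members. Of the T cell receptor and T cell identity genes, 40 of 40 had a promoter region called in all 4 libraries and 0 were members. Of the Treg identity and effector genes, 27 of 32 autosomal genes had one and 0 were members. By comparison, 757 of 11007 protein-coding genes with such a promoter region were members (6.88%), leaving out extreme regions. The position of a promoter is given below as the percent of the peaks of a library that ranked above it, in the library where it ranked lowest, so that small values are strong promoters. The median position was 7.30% for the T cell genes, 10.9% for the Treg genes and 6.95% for all protein-coding genes. No test was made of these shares, since genes are not replicates and the lists were chosen with earlier results known.

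Among the T cell genes, Klf2, which controls exit from lymphoid organs, came nearest at 1.30%, with fold enrichments of 44.6 and 60.1 in WT and 55.6 and 51.5 in Il2ramut/mut. Among the Treg genes it was Entpd1, which encodes the ectonucleotidase CD39, at 1.84%. The promoter of Ctla4, the inhibitory receptor by which Treg cells restrain costimulation, stood at 4.40%. Foxp3, on the X chromosome and so outside the rule, had a weak promoter peak at 52.3%, with fold enrichments of 4.56 and 6.57 in WT and 5.83 and 5.35 in Il2ramut/mut. The genotypes overlapped at Klf2 and at Foxp3.

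The one member among the 19 autosomal genes of the IL-2 receptor and STAT5 pathway with a called promoter was Stat3, a transcription factor that cytokine receptors activate. Its promoter had a fold enrichment of 61.8 and 84.4 in WT and of 77.2 and 76.3 in Il2ramut/mut, and the genotypes overlapped. The promoters of Il2rb and Stat5a, the latter a main effector of IL-2, lay just short of the limit, at 0.81% and 0.84%. Activation and immediate early genes had 4 members of 33 (12.1%), namely Klf6, Relb, Jun and Btg1. Klf6 is a zinc finger factor, Relb a subunit of NF-kappaB, Jun a subunit of AP-1 and Btg1 a restraint on proliferation. Their fold enrichments lay between 53.2 (Btg1 in WT replicate 1) and 99.03 (Relb in WT replicate 2).

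The next groups were gathered by gene symbol, so they hold regulators and relatives beside the core factors. Genes with symbols in Eif or Eef had 9 members of 61 (14.8%), led by Eif2ak3 at 0.11% and Eif2ak4 at 0.25%, which encode the kinases PERK and GCN2 that slow translation under stress, and by Eif4a1 at 0.35%, a helicase of initiation. Besides these kinases, the members included Eef2kmt, a methyltransferase, and Eif4ebp2, a repressor of initiation. Genes of the respiratory chain and the mitochondrial ribosome had 9 of 161 (5.59%), with Mrpl17 and Ndufaf8 in front. Splicing genes, gathered together with Ddx helicases of other roles, had 5 of 99 (5.05%), namely Hnrnpc, Hnrnpa3, Prpf4, Ddx24 and Ddx39, and zinc finger protein genes had 15 of 298 (5.03%), among them Zfp574 and Zfp143. Ribosomal protein genes had 2 of 76 (2.63%), Rpl13a and Rpl27, and proteasome subunits (45 genes) and histone genes (67 genes) had 0. Of 13 host genes of small nucleolar RNAs, Snhg10 was a member. The ribosomal protein promoters had a median position of 4.85%, nearer the top than that of all protein-coding genes, although few reached the strongest set.

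**Figure D2:**
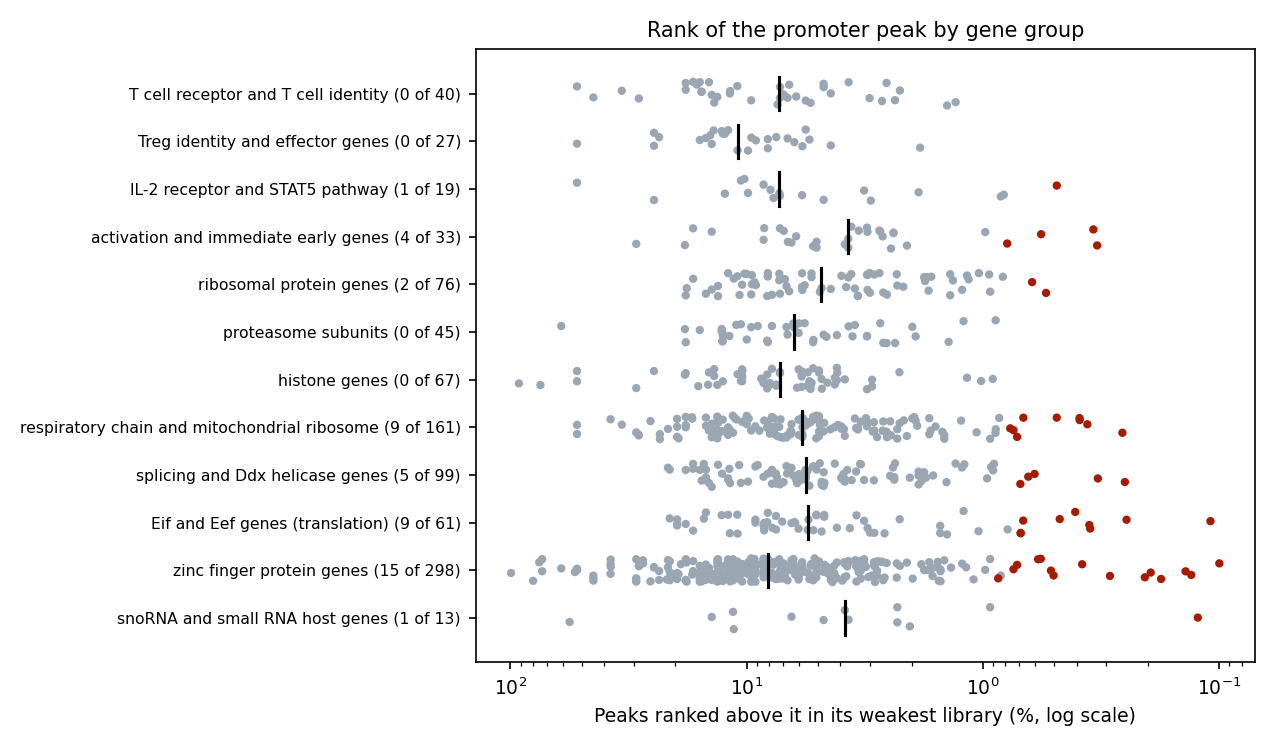
Position of the promoter peak of each gene by gene group, as the percent of peaks ranked above it in the library where it ranked lowest (log scale, stronger to the right), for autosomal genes with a promoter region called in all 4 libraries. Red points are members of the strongest shared regions and black lines are medians. The counts beside the names are members of genes with such a region: 0 of 40 T cell genes and 9 of 61 Eif and Eef genes. The share over all protein-coding genes was 6.88%.

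Around the summits, member promoters held CCAAT boxes more often than all promoters did, at the same median GC content. Each word was sought on both strands within 150 bases to either side of the median summit. CCAATCA, the NFY word, stood in 227 of 669 member promoters (33.9%, interval 30.4 to 37.6%) and in 10.6% of all promoter regions. GGGCGGG, the SP/KLF word, stood in 62.6% of member promoters and in 44.9% of all. The median GC content of the window was 62.8% in both sets, and the ratio of observed to expected CpG was 0.82 in member promoters and 0.78 in all.

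Other words differed less or went the other way. CCGGAAG (ETS) stood in 19.4% of member promoters and 18.3% of all, and TTCNNNGAA (STAT) in 7.32% and 6.24%. TGTGGTT (RUNX) stood in 2.54% and 5.26%, TGANTCA (AP-1) in 3.74% and 5.31%, and GGGANTTCC (NF-kappaB) in 1.64% and 2.37%. GCATGCGC (NRF1), AAGATGGC (YY1) and TGACGTCA (CREB/ATF) were each within 1.5 percentage points of their share over all promoters. So were the E-box word CACGTG, at 9.72% and 10.2%, and the TATA box word TATAAA, at 3.74% and 4.77%. The CTCF consensus stood in 3 member promoters (0.45%) and in 1.72% of all. A word is a match of letters and does not show that a factor was bound.

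**Figure D3:**
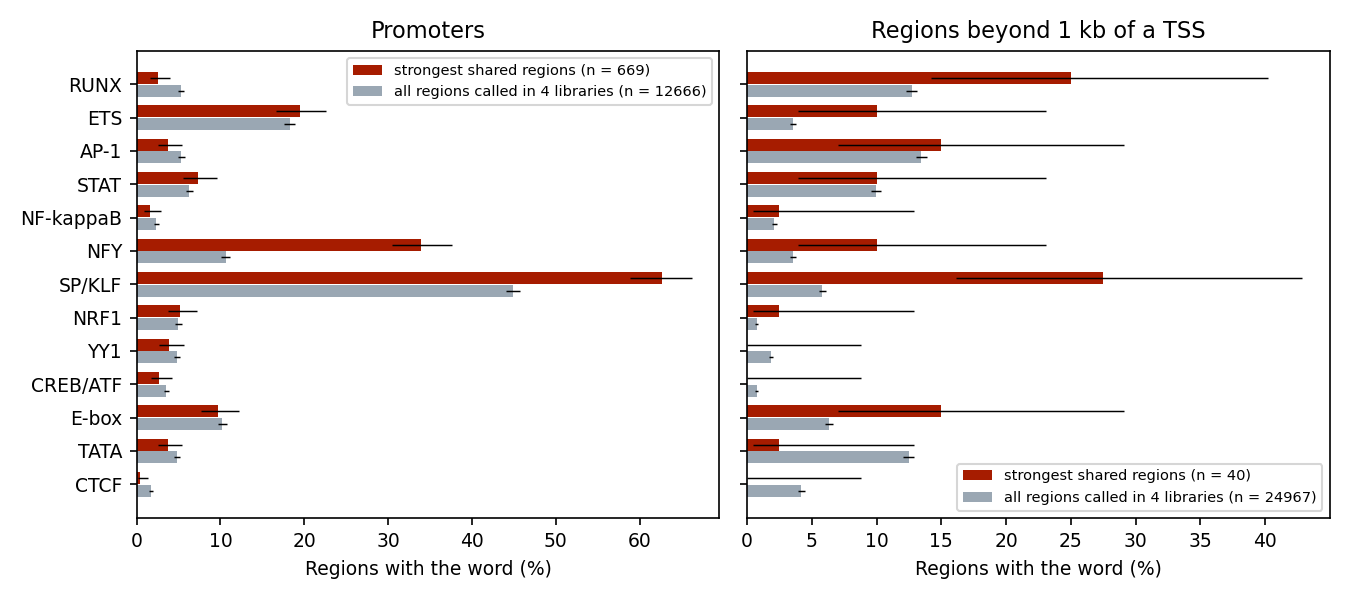
Share of regions (%) with each word within 150 bases of the median summit, for promoters and for regions beyond 1 kb of a TSS, in the strongest shared regions (red) and in all regions called in 4 libraries (grey), with 95% Wilson intervals. The NFY word stands out in promoters, at 33.9% against 10.6%, and the SP/KLF word in the other regions, at 27.5% against 5.82%.

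The NFY word followed the strength of promoter peaks far beyond the members and in each of the 4 libraries. Over the promoter peaks of a library ranked 1 to 1000, it stood in 31.8% and 32.0% in the WT libraries and in 30.3% and 29.9% in the Il2ramut/mut libraries. Over ranks 2001 to 4000, which lie outside the top peaks, it stood in 14.7% and 14.6% in WT and in 15.35% and 14.95% in Il2ramut/mut. Over ranks 8001 to 12000 it stood in 4.03% and 4.60% in WT and in 4.40% and 4.48% in Il2ramut/mut. The share thus fell with each step of rank in all 4 libraries, and at each step the libraries lay closer to each other than to the next step. The median GC content of the window was between 62.5 and 65.1% in the first 4 of the 5 bins and between 58.8 and 59.5% in the last. The RUNX word ran the other way, from between 2.70 and 3.20% in the first bin to between 6.10 and 6.90% in the last.

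**Figure D4:**
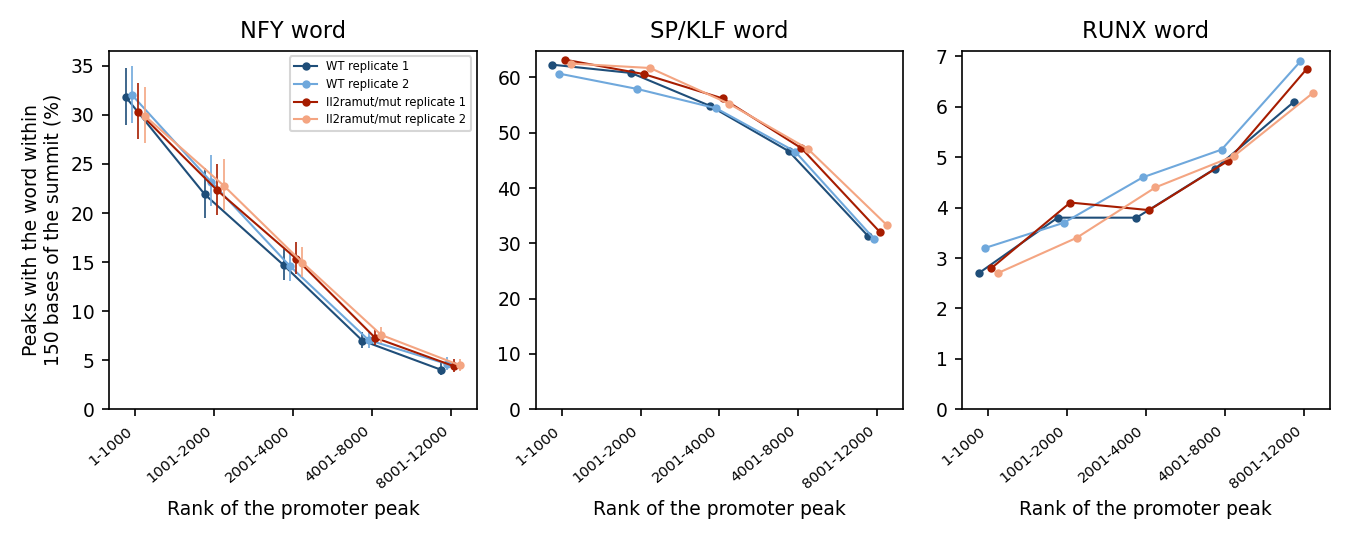
Share of promoter peaks (%) with the NFY, SP/KLF and RUNX word within 150 bases of the summit, by rank of the peak among the promoter peaks of its own library, one line per library, with 95% Wilson intervals for NFY. In all 4 libraries the NFY share falls from about 30 to about 4% and the RUNX share rises.

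The word was also sought around the TSS in place of the summit. Among the 523 member promoters that covered a TSS of exactly 1 protein-coding gene, 151 held the word within 200 bases of the TSS (28.9%, interval 25.2 to 32.9%), against 10.7% of all 8626 such promoters. Of the 187 words found in the members, 85.0% were upstream of the TSS, against 86.9% over all promoters, and the median word lay 77 bases upstream (64 bases over all promoters). The summit itself was farther upstream in members, at a median of 124 bases before the TSS (interquartile range 181 to 70.5), against 43 bases over all promoters.

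The 33 regions beyond 1 kb of a TSS that were not extreme had summits between genes in 19 cases, in an intron in 13 and in an exon in 1. They lay between 1.5 and 77.5 kb from a TSS, with a median of 10.6 kb. Their median GC content was 58.1% and their CpG ratio 0.37, against 48.8% and 0.22 over all 24967 regions of this class. The SP/KLF word stood in 11 of the 40 members of this class (27.5%, interval 16.1 to 42.8%) and in 5.82% of all, and the RUNX word in 10 (25%, interval 14.2 to 40.2%) and 12.7%. Of these 10, 2 were extreme repeat regions and 1 more, near Gm47772, shared sequence with them. The remaining 7 included introns of Jakmip1, Ptk2b and Ago2. The CTCF consensus was in 0 of 40 (upper bound of the interval 8.76%) and in 4.19% of all.

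Of these regions, 3 are shown by the summit and 50 bases to either side on the plus strand, the strongest pair and the one upstream of Fos, with the ETS word CCGGAAG and the AP-1 word TGANTCA in capitals.
Near Gm49539 (chr15:85634619-85634719): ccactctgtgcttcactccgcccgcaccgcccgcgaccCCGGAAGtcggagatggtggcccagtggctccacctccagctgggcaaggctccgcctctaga
Near Zfp869 (chr8:69716991-69717091): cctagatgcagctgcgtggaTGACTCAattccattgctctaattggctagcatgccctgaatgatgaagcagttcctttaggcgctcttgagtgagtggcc
Upstream of Fos (chr12:85455353-85455453): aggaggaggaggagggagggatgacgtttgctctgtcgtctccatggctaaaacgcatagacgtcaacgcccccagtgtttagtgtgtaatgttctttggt
The region near Gm49539, 10.7 kb from its TSS, had a fold enrichment of 110 and 137 in WT and 123 and 126 in Il2ramut/mut. The region 5.5 kb from Zfp869 had 97.3 and 146 in WT and 113 and 109 in Il2ramut/mut. In both, the values of the genotypes overlapped.

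The regions named next were picked from the 33 after their values were seen, and others of the 33 lay near genes such as Actb, Lmna, Ccne1 and Mrps27. A region 17.8 kb from the TSS of Fos, the AP-1 subunit that antigen receptor signals induce, had a fold enrichment of 66.4 and 107 in WT and 83.4 and 81.6 in Il2ramut/mut. A region 6.75 kb from the TSS of Nr4a1, a nuclear receptor induced by T cell receptor signals, had 54.2 and 75.3 in WT and 69.1 and 67.1 in Il2ramut/mut. A region in intron 1 of Inpp5d, which encodes the inositol phosphatase SHIP1 of blood cells, had 69.4 and 106 in WT and 75.8 and 87.0 in Il2ramut/mut. At all 3 the WT libraries spanned the Il2ramut/mut libraries, as they did at the median of the members. Others lay in intron 1 of Fmnl1, a formin of leukocytes, and in intron 2 of Ptk2b, a kinase of adhesion and antigen receptor signals. The region in exon 12 of Zfyve28 was 8.24 kb from the TSS of Mxd4, whose promoter was a member too. The region near Catspere2 shared 460 words of 25 bases with the member promoter of Desi2, 46.4% of the words of the latter.

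The top of the list was made of repeats. A fold enrichment was called extreme when its log2 exceeded the third quartile of the members of the library by more than 1.5 interquartile ranges. This was so for 13, 14, 15 and 14 regions in WT replicates 1 and 2 and Il2ramut/mut replicates 1 and 2, for 19 in any library and for 11 in all 4. These 11 were the first 11 by lowest percentile, 4 of them at a TSS and 7 not, and they lay on 5 chromosomes. Another 8 regions were extreme in 1 or 2 libraries: the promoters of Map3k3, Dnpep, Kctd9, Srgap2, Mxd4, Stt3a and Pja2 and of the predicted gene Gm21738.

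Extreme regions are shown by the summit and 50 bases to either side of it for 4 of them, on the plus strand, because their sequence sets them apart. Capitals mark the RUNX word, on either strand.
Intron 3 of Chl1 (chr6:103649155-103649255): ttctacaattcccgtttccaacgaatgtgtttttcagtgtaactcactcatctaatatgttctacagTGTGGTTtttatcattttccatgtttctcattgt
Near Gm10800 (chr2:98665069-98665169): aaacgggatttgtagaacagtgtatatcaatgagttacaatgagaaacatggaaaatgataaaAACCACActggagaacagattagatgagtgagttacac
Intron 1 of Gm33838 (chr9:35305379-35305479): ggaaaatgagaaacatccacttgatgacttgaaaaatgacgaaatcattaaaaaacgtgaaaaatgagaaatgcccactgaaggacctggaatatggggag
Intron 2 of AC174800.1 (chr17:13552844-13552944): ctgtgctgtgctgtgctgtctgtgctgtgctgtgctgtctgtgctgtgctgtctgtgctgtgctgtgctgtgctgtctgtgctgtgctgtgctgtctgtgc
The regions of the first pair had 80 words of 25 bases in common. The region of the third had a tandem period of 234 bases, which is the unit length of the mouse major satellite, a pericentromeric repeat. The fourth is made of short repeated units.

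The region at Gm10800 on chromosome 2 (chr2:98666075-98667461) had a fold enrichment of 3612 and 2999 in WT and 2837 and 2858 in Il2ramut/mut. The region in intron 3 of Chl1 (chr6:103648944-103649424) had 1214 and 1202 in WT and 1053 and 846 in Il2ramut/mut. Gm10801 (chr2:98662064-98663150) had 1029 and 990 in WT and 913 and 763 in Il2ramut/mut. At these 3 both WT libraries lay above both Il2ramut/mut libraries, an order that is common with 2 libraries per genotype even without a difference. The 2 regions on chromosome 17 went the other way, with 418 and 458 in WT against 461 and 553 in Il2ramut/mut at chr17:13546688-13553366 and with 184 and 196 against 219 and 260 at chr17:13305799-13306668. The fold enrichment is relative to the background of a library, which was 0.97 and 0.98 reads in WT and 1.23 and 1.06 reads in Il2ramut/mut, and the part of this in these orders was not tested.

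Repeat content was higher in most of these regions than in most other members, and the ranges overlapped. Between 15.7 and 82.6% (median 42.5%) of their 50-base words occurred more than once in the genome, against a median of 0% and a highest value of 52.6% over the other 698 members. At 20% or more stood 10 of the 11 extreme regions and 6 of the other 698. The soft-masked share had a median of 67.5% against 6.04%, and GC content was between 29.9 and 49.0% against a median of 59.6%. The best tandem period was 234 bases in 4 of the 11, at Gm10800, Gm10722, Gm10717 and 9:35305060. Gm10800 shared 10 or more words of 25 bases with 8 of the other extreme regions and with 2 members that were not extreme in all libraries, Gm21738 and the region near Gm47772. The regions on chromosome 17 shared no such set with Gm10800 but had 188 words in common, and shared 57 and 86 with a region in intron 1 of Smo.

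By the limit of 50% of words, 4 members were multi-copy: Gm10717, Gm10722 and 9:3006380, all near the start of chromosome 9, and 11:89081570 in intron 2 of Gm525, which was not extreme. The last had fold enrichments of 90.2 and 95.5 in WT and 100.5 and 110.3 in Il2ramut/mut. No member was like mitochondrial DNA by the limit of 10% of 25-base words, and 0 shared any such word with the mitochondrial genome. An alignment to it was found for 1 member, the promoter of Ghitm, where 262 bases matched at 82.1% identity. The authors had removed reads that aligned to mitochondrial DNA. How reads that fit several places were treated is not given in the sources used here, and its part in the extreme values was not tested.

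Whether the strongest regions differed between the genotypes was read from a fit over all 37633 regions called in all 4 libraries. The rule asked for a top peak in both genotypes, so a region that was strong in 1 genotype only could not enter, and the small differences below are partly set by that choice. By limma with Benjamini-Hochberg adjustment over all regions, 0 of 37633 regions (0%) and 0 of 709 members passed an adjusted p of 0.05. At an unadjusted p of 0.05 or less stood 3317 regions (8.81%) and 3 of the 709 members (0.423%). The log2 difference of the members (Il2ramut/mut minus WT, quantile-normalized) had a median of 0.01 and an SD of 0.15, against 0.00 and 0.32 over all regions, and 641 of 709 lay within 0.25. The median pile-up of a library was 138 to 192 reads in members and 14 to 20 over all regions. The part of this in the smaller spread was not tested. The median 95% interval of a member reached 0.44 to each side. The fit used a common prior variance without a trend over strength. The intervals and p of members therefore partly reflect regions with lower pile-ups. The shortest interval reached 0.42 to each side among members and over all regions alike. After adjustment over all regions larger differences were not called either. Changes of about 0.44 were therefore not detectable by this fit with 2 libraries per genotype.

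The 3 members with the smallest p were Tle1, Clec11a and Gm10717. At the promoter of Tle1, a Groucho corepressor, the fold enrichment was 51.7 and 73.8 in WT and 85.7 and 88.4 in Il2ramut/mut, a log2 difference of 0.50 (SE 0.17, limma adjusted p = 0.548). At Clec11a, a secreted lectin, it was 52.2 and 73.8 in WT and 80.7 and 96.2 in Il2ramut/mut, a log2 difference of 0.51 (SE 0.18, limma adjusted p = 0.548). At Gm10717, one of the repeat regions, it was 480 and 512 in WT and 410 and 206 in Il2ramut/mut, a log2 difference of -0.70 (SE 0.27, limma adjusted p = 0.563). The genotypes did not overlap at these 3, which were picked by their p, and none passed the adjusted threshold. Stat3 differed by 0.08 (95% interval -0.35 to 0.50) and the region upstream of Fos by -0.02 (-0.48 to 0.43). At Gm10800, in Chl1 and at Gm10801 the difference was 0 by construction, because they held the first ranks in every library and quantile normalization gives equal ranks equal values.

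Membership in the top 1000 was also set side by side. Of the regions with a top peak in exactly 2 libraries, 44 had it in both WT libraries and 44 in both Il2ramut/mut libraries. The 4 pairs of a WT and an Il2ramut/mut library had 23, 22, 23 and 22. In these counts both pairs within a genotype stood above all pairs across genotypes. With 2 libraries per genotype, such an order can arise with a probability of up to 0.333 even without a difference. No genotype pattern is therefore read from it. Regions are not replicates, so these counts carry no test.

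**Figure D5:**
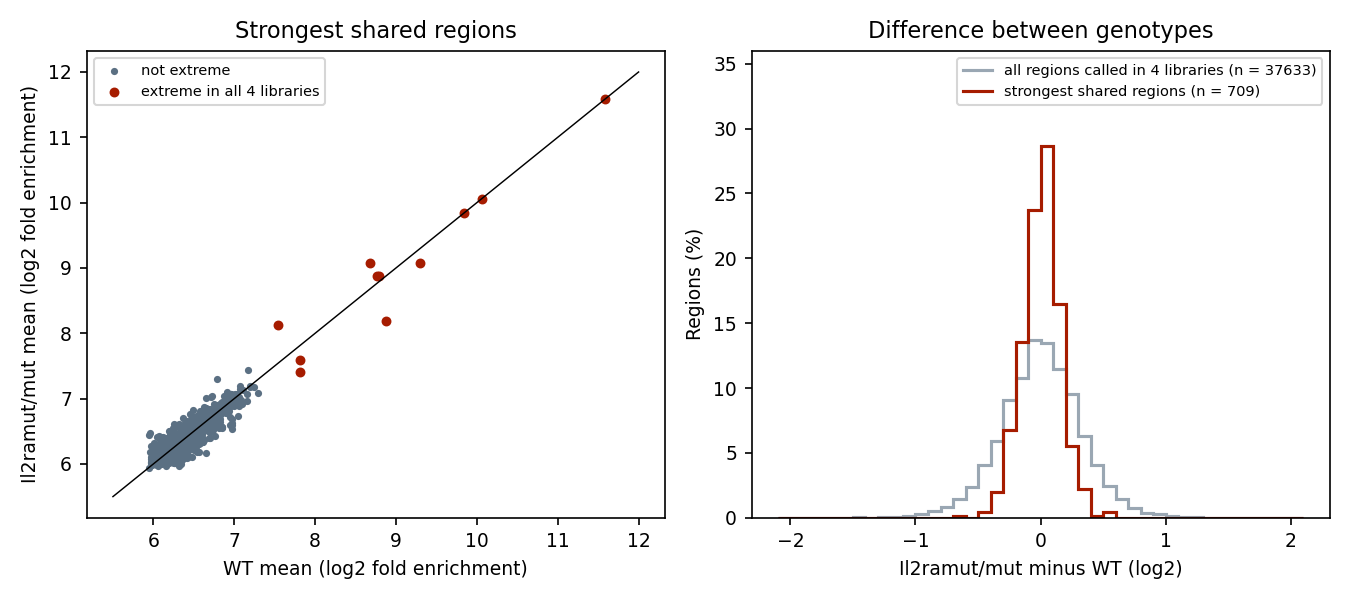
Left, mean log2 fold enrichment (quantile-normalized) of the 709 strongest shared regions in Il2ramut/mut against WT, with extreme regions in red and the line of equality. Right, share of regions (%) by log2 difference between the genotypes, for the 709 members (SD 0.15) and for all 37633 regions (SD 0.32). The members lie closer to 0. The rule favours this and the members had higher pile-ups too, and the part of each was not tested.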

How the data were processed

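ATAC-seq was measured in 2 WT and 2 Il2ramut/mut libraries of LN Treg cells. According to the submitters' processing notes and the methods of the study, the authors trimmed reads with Trim Galore (0.3.7), aligned them to mm10 with BWA mem (0.7.13), removed duplicates (Picard 1.92) and mitochondrial reads, kept concordant pairs (SAMtools 0.1.19), shifted read ends and ran MACS2 (2.1.0) in narrow mode on every library separately. The deposited lists hold the authors' fold enrichment at the summit (a ratio), −log10 p, −log10 q and a score that is 10 times the −log10 q. With a single background per library, the fold enrichments of 100% of peaks came from whole read pile-ups. No counts or totals were given, so intervals cover counting error over regions only.

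The 1000 peaks with the highest −log10 p were taken per library, with ties by chromosome and start. Percentiles are ranks of −log10 p among all peaks of a library, and members were ordered by their lowest percentile. TSSs came from GENCODE M21 (basic set), whose GRCm38 coordinates are those of mm10, and sequence from RefSeq GRCm38.p6. Alignments to the mitochondrial genome were made with blastn (2.17.0). Genotypes were compared with limma (3.58.1, R 4.3.3, two-sided) on quantile-normalized log2 fold enrichment without a replicate block. Variances were moderated without a trend over the strength of the regions. The fit, the merging and the annotation were tested on simulated data. Other steps used Python (3.11.15), and shares carry 95% Wilson intervals.

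The members and gene lists were chosen with earlier results of these data known. Regions named were the 10 promoters and 10 other regions highest by lowest percentile, the extreme and multi-copy members, members at Treg, T cell or IL-2 genes, 5 regions on either side of the limit and the first members of each gene group. The regions at Fos, Nr4a1, Inpp5d, Fmnl1, Ptk2b, Jakmip1, Ago2, Zfyve28 and Catspere2, the genes nearest the limit and the members of smallest p were chosen after their values were seen, as were the sex-linked genes. Regions on sex chromosomes and scaffolds were left out of the members.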

Additional observations from a re-analysis of the deposited data

How the results depend on the processing

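The count of regions called between the genotypes stayed 0 in every alternative: median centring, a −log10 q of 3 or more, regions called in 2 or more libraries, a replicate block and leaving out each library. The lowest adjusted p was 0.058 with median centring and between 0.204 and 0.631 otherwise (0.546 as reported). Median centring moved the median difference of the members to 0.11, with 0.06 over all regions. Members at an unadjusted p of 0.05 numbered 2 to 13 over the alternatives, with 13 without WT replicate 1, 11 without WT replicate 2, 8 without Il2ramut/mut replicate 1 and 2 without Il2ramut/mut replicate 2. The labels number replicates 1 and 2 in both genotypes. Deviations of same-numbered libraries had a correlation of 0.01 after quantile normalization. This shows no shared deviation but cannot show whether the libraries were processed in pairs. The replicate block gave 0 calls and 2 members at an unadjusted p of 0.05.

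With 500 and 2000 peaks per library, 346 and 1498 regions met the rule. Ranking by fold enrichment, merging all peaks first and an overlap of 0.5 of the shorter peak each gave 709. The handling of ties, chosen after seeing the data, gave 708 regions in text order of chromosomes and 716 with all tied peaks. Without 1 library at a time, 749 to 760 regions met the rule, 93.8 to 94.3% of them promoters. The promoter share was 90.7% with 2000 peaks and 91.3% with TSSs of protein-coding genes only, and 92.7 to 95.3% otherwise. Within 50 bases of the summit, the NFY word stood in 14.9% of member promoters and 5.87% of all. With a limit of 3 interquartile ranges, 7 members were extreme, and 11 in the other alternatives. The lists show neither depth nor regions below the peak threshold, and 2 libraries per genotype limit what could be detected.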

Other observations

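Outside the autosomes, 4 merged regions held a top peak of all 4 libraries. The strongest lay 35.3 kb from Pak3 on the X chromosome (chrX:143482861-143483262), where WT had fold enrichments of 261 and 256 and Il2ramut/mut of 250.3 and 247. The region near Cldn34d had 97.3 and 104 in WT and 93.3 and 70.5 in Il2ramut/mut. At both, each WT library lay above each Il2ramut/mut library, an order that is common with 2 libraries per genotype. The promoter of Haus7, a subunit of the augmin complex of the spindle, had 54.7 and 76.3 in WT and 68.6 and 71.4 in Il2ramut/mut. A region on an unplaced scaffold had 65.3 and 92.5 in WT and 134 and 132 in Il2ramut/mut, the reverse order. No TSS was assigned to it, and these differences were not tested.

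Among regions beyond 1 kb of a TSS, the RUNX word also followed the strength of the peak in each library. Over the 200 strongest such peaks it stood in 21 and 23.5% in WT and 21 and 22% in Il2ramut/mut. Over ranks 8001 to 16000 it stood in 11.51 and 12.7% in WT and 11.55 and 11.75% in Il2ramut/mut. This is the opposite of its course in promoters, where its share rose as peaks weakened. The SP/KLF word fell from between 20 and 22% to between 4.80 and 5.59% over the same ranks.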
